A study of Homo sapiens with 12 samples.

Results

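The insulin-like growth factor (IGF) system was followed through 10 genes, the IGF-binding proteins IGFBP1 to IGFBP7 and the receptors IGF1R, IGF2R and INSR, in 12 RNA libraries of 786-O, a human cell line from clear cell kidney cancer. The genes were taken by name: all 10 were found among the 62702 genes of the count table through their Ensembl identifiers. RNA was read by BRB-seq, in which barcoded 3′ ends of polyadenylated RNA are sequenced and counted per gene. The libraries form 4 groups of 3, all after 72 hours of doxycycline: the parental line (labelled Parental Control), and 3 lines with inducible shRNAs. The shHIF2A line targets HIF2A, the shJUNs line the JUN family (cJUN, JUNB and JUND), and the shYAPTAZ line both YAP and TAZ. HIF2A is the oxygen-regulated transcription factor encoded by EPAS1, the JUN proteins are subunits of the transcription factor AP-1, and YAP and TAZ are coactivators held in check by the Hippo pathway. As background, 786-O cells lack working VHL, which marks HIF2A for destruction.

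The drugs used to select the shRNA lines depended on how many genes were silenced, and the sources used here do not say whether the parental cells were selected. A line carrying a control shRNA was not analysed here, so that the effect of a knockdown and other differences between lines cannot be told apart. The labels call the replicates technical, and the p-values therefore measure only the spread between these libraries, which may be technical.

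IGF1 and IGF2 are secreted growth factors. They signal through IGF1R and the insulin receptor INSR, both tyrosine kinases that pass the signal to the adaptors IRS1 and IRS2 and on to PI3 kinase and AKT. IGF2R, the mannose 6-phosphate receptor, has no kinase: it takes up IGF2 for breakdown and sorts lysosomal enzymes. The binding proteins hold IGFs outside the cell, where they can block or prolong their action, and several also act on cells by themselves. IGFBP3 is the main carrier in blood, IGFBP6 prefers IGF2, and IGFBP7 binds IGFs weakly.

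The libraries held 2272459 to 4469956 counts, so that 3 counts in 1 library equal 0.671 to 1.32 CPM (a gene's count scaled to the library size). The mRNA of every shRNA target was lower in its own knockdown than in parental cells, from 1.7-fold for JUNB to 12.7-fold for EPAS1. The JUNB libraries overlapped, and its call ended in 7 of 20 alternatives (1.37-fold, adjusted p = 0.2 without parental replicate 3). EPAS1 was also 5.47-fold lower in shJUNs and was called 1.8-fold lower in shYAPTAZ (edgeR adjusted p = 0.0361, lost in 5 of 20 alternatives). JUN was also 1.91-fold lower in shHIF2A. JUND fell in all 3 knockdowns, 9.2-fold in shJUNs, 1.61-fold in shHIF2A and 2.09-fold in shYAPTAZ. WWTR1, the gene of TAZ, was higher in shHIF2A (503.5 ± 25.9 CPM) and shJUNs (441 ± 28.8) than in parental cells (310.8 ± 66.1). The rise in shHIF2A was called in all 20 alternatives (adjusted p up to 0.0137). That in shJUNs (edgeR adjusted p = 0.0169) was lost without parental replicate 1 (0.0846) or shJUNs replicate 1 (0.07) or 2 (0.0687). All 10 markers of kidney tubule and renal carcinoma had more than 3 counts in each group. Their levels moved all the same: against parental cells 3 were called higher and 3 lower in shHIF2A (9.84% and 8.8% of all genes). The shJUNs line had 3 higher and 1 lower (10.3% and 8.93% of all genes). The shYAPTAZ line had 2 higher and 0 lower (13% and 12.3% of all genes). PAX8, the renal lineage factor, was not called in any of the 3. Of 6 endothelial markers, 4 had no count in any library, and their summed level stayed at or under 0.96 CPM. Summed blood markers stayed at or under 3.84 CPM. Summed fibroblast and pericyte markers were 39.4 to 44.1 CPM in parental libraries, 60.6 to 78.3 in shHIF2A, 35.1 to 41.7 in shJUNs and 40.7 to 50.4 in shYAPTAZ. Of 8 such markers 5 were tested, with 1 called higher and 0 lower in shHIF2A, 0 in shJUNs, and 1 higher and 2 lower in shYAPTAZ. The shares of all genes are those given for the kidney markers. The gene called higher in both was COL1A1, a collagen chain (3.79-fold and 3.34-fold), and those called lower in shYAPTAZ were LUM and PDGFRB, the latter lost without parental replicate 2 (adjusted p = 0.0611) or shYAPTAZ replicate 2 (0.0666) or 3 (0.0568). Of 4 hepatocyte markers 1 was tested, SERPINA1, which fell from 74.95 ± 8.28 to 18.95 ± 3.41 CPM in shHIF2A. The part of these markers in the results below was not tested, and in RNA from whole cultures fewer cells of a type and less RNA per cell cannot be told apart.

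IGFBP3 and IGF1R fell and IGFBP6 rose in every knockdown, while IGF2R and IGFBP5 passed no test. IGFBP7 rose in shJUNs and shYAPTAZ, IGFBP1 rose in the same 2 lines from almost no parental counts, and IGFBP4 rose in shJUNs. IGFBP2 was low and passed no test, and INSR was all but uncounted. The filter on low counts kept 9 of the 10 genes and left out INSR, and IGFBP1 was kept only through shJUNs and shYAPTAZ, where it was counted. Genes were called where edgeR's quasi-likelihood test over 12301 genes gave a p under 0.05 after Benjamini-Hochberg adjustment. By this rule 6 of the members differed among the 4 groups, where 38.7% of all genes did. Against parental cells 3 members were called in shHIF2A (18.6% of all genes), 6 in shJUNs (19.3%) and 5 in shYAPTAZ (25.3%). The counts of shJUNs and shYAPTAZ include IGFBP1, as does the count among the 4 groups. The 3 comparisons share the parental libraries. Libraries did not overlap with the parental ones for 36.1% of all genes in shHIF2A, 39.5% in shJUNs and 36.2% in shYAPTAZ. Of all genes, 2.85% were called lower in all 3, as IGFBP3 and IGF1R were, and 3.18% higher in all 3, as IGFBP6 was.

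**Figure D1:**
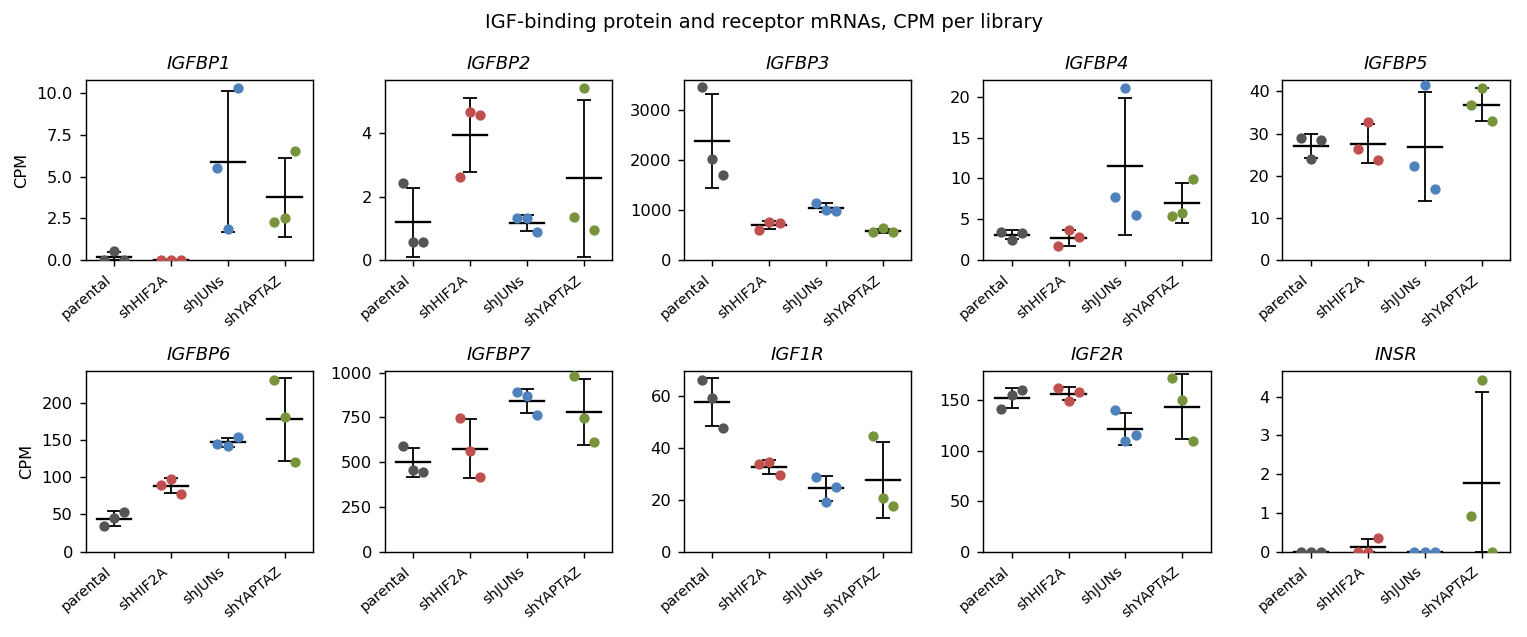
CPM of each member in each library, by group, on a linear axis from 0 that differs between panels. Points are libraries in the order of their replicate numbers, lines are means and bars are SD (n = 3), cut at 0. IGFBP3 lay between 1697 and 3453 CPM in parental cells and between 566 and 1146 CPM in the knockdowns, and INSR had a point above 1 CPM in 1 library only.

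Promoter sequences are shown for 4 members whose mRNA behaved differently: IGFBP3 and IGF1R, which fell in all 3 knockdowns, IGFBP6, which rose in all 3, and IGF2R, which passed no test. They come from RefSeq (GRCh38.p14), which gave windows of 250 bases before to 50 after the start for 8 of the 10 members. Each is written 5′ to 3′ on the gene's strand. The RefSeq starts of IGFBP3 and IGFBP6 lie inside the gene bounds given for them below. Capitals mark, on either strand, ACGTG or GCGTG (the core bound by HIF), TGANTCA (the AP-1 site) and GGAATG (the site of TEAD, the DNA-binding partner of YAP and TAZ).
IGFBP3, chr7:45921223-45921522, minus strand: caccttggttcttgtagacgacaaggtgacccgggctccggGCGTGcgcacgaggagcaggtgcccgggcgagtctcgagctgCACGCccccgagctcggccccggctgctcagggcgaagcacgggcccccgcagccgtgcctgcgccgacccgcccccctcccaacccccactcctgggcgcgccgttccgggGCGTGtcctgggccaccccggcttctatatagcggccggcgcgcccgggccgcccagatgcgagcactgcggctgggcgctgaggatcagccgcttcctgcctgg
IGF1R, chr15:98648289-98648588, plus strand: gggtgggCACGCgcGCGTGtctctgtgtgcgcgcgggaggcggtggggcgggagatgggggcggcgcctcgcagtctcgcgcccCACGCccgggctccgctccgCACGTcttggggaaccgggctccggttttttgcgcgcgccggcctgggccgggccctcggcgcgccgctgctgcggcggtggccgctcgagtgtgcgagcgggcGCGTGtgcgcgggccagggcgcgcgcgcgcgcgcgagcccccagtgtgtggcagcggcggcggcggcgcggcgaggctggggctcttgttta
IGFBP6, chr12:53097417-53097716, plus strand: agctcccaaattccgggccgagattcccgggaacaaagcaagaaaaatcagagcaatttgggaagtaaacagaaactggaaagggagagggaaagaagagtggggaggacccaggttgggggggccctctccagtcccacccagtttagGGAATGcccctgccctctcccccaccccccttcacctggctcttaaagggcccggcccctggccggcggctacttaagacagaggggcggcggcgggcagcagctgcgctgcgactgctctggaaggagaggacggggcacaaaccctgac
IGF2R, chr6:159968832-159969131, plus strand: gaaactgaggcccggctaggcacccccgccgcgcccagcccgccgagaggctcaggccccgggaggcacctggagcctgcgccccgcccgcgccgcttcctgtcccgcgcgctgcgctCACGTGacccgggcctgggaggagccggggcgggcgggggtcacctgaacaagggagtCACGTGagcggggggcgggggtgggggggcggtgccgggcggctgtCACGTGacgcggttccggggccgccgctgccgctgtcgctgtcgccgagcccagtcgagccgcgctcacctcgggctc

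In these windows IGFBP3 had 3 matches to the HIF core letters, all GCGTG, at 209, 167 and 55 bases before the start. IGF1R had 5, of which 1 was ACGTG. IGF2R had 6 matches in 3 overlapping pairs, each pair the palindrome CACGTG read on both strands. IGFBP6 had none, and had 1 match to GGAATG at 101 bases before the start. Among members not shown, IGFBP5, which passed no test, also had 1 match to GGAATG, at 235 bases before the start. IGFBP2, which likewise passed no test, had HIF core letters 132 bases before a start and 31 bases after another. The windows of IGFBP4 and INSR had no match. No window of these members held TGANTCA. Of 35116 windows of the same length, 48.4% held ACGTG or GCGTG, 7.7% TGANTCA and 14.0% GGAATG. A match to letters is a description of the sequence and no evidence that a factor binds there.

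IGFBP3 (ENSG00000146674, chromosome 7, 45912245 to 45921874, hg38), a gene that hypoxia is known to induce, was the binding protein with the most counts. Its level was 3453, 2009 and 1697 CPM in parental replicates 1 to 3, and 609, 755 and 753 CPM in shHIF2A. It was 1146, 1006 and 980.4 CPM in shJUNs and 572, 637 and 566 CPM in shYAPTAZ. No knockdown library reached the lowest parental one, and parental replicate 1 stood above the other parental libraries. By edgeR, the mean of 2386 ± 937 CPM (SD, n = 3) fell 3.38-fold to 705 ± 83.7 CPM in shHIF2A (log2 change -1.76, SE 0.19, adjusted p = 1.02e-05). The fall was 2.29-fold in shJUNs, to 1044 ± 89.0 CPM (adjusted p = 0.000347), and 4.03-fold in shYAPTAZ, to 592 ± 39.8 CPM (adjusted p = 1.21e-06). All 3 falls were called in each of 20 alternative settings, with folds of 2.64 to 3.87, 1.78 to 2.62 and 3.13 to 4.63.

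The order of IGFBP3 levels was parental, shJUNs, shHIF2A and shYAPTAZ. The last 2 did not differ beyond their spread (1.19-fold, adjusted p = 0.403). shJUNs lay 1.48-fold above shHIF2A without passing the test (adjusted p = 0.0828, with 0.000153 to 0.239 over the alternatives, 5 of which called it). shYAPTAZ lay 1.77-fold below shJUNs (adjusted p = 0.00712).

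IGFBP6 (ENSG00000167779, chromosome 12, 53097436 to 53102345) went the other way. Its level was 34.2, 44.99 and 53.7 CPM in parental cells and 89.6, 97.9 and 78.1 CPM in shHIF2A. The shJUNs libraries had 145, 142 and 154 CPM, and the shYAPTAZ libraries 232, 182 and 121 CPM. Every knockdown library lay above every parental one, and shYAPTAZ had the widest spread. From a parental mean of 44.3 ± 9.77 CPM it rose 1.99-fold in shHIF2A (to 88.5 ± 9.95 CPM, edgeR adjusted p = 0.00214). The rise was 3.31-fold in shJUNs, to 147 ± 6.39 CPM (adjusted p = 4.33e-06), and 3.99-fold in shYAPTAZ, to 178 ± 55.5 CPM (adjusted p = 4.13e-07). These calls held in all 20 settings. IGFBP6 was 2-fold higher in shYAPTAZ than in shHIF2A (adjusted p = 0.00142). It was 1.66-fold higher in shJUNs than in shHIF2A (adjusted p = 0.0294), a call that ended without any 1 of the 6 libraries compared (0.0577 to 0.112). The shJUNs and shYAPTAZ lines differed by less than their spread (1.21-fold, adjusted p = 0.407).

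IGFBP7 (ENSG00000163453, chromosome 4, 57030773 to 57110385), a matrix-associated member also called angiomodulin, was the next most counted. Its level was 592, 456 and 445 CPM in parental cells and 744, 562 and 416 in shHIF2A, which overlapped. It was 892, 867 and 762 CPM in shJUNs and 981, 746 and 615 in shYAPTAZ, all above the parental libraries. By edgeR it rose 1.69-fold in shJUNs (498 ± 82.2 to 840.4 ± 68.8 CPM, adjusted p = 0.0081) and 1.57-fold in shYAPTAZ (780.4 ± 185 CPM, adjusted p = 0.016). In shHIF2A it was 574 ± 165 CPM (log2 difference 0.21, approximate 95% interval -0.16 to 0.57, adjusted p = 0.483). In shYAPTAZ the call was lost when parental replicate 2 (adjusted p = 0.062), parental replicate 3 (0.0678) or shYAPTAZ replicate 1 (0.0718) was left out. Exons of IGFBP7 share 260 bases with POLR2B on the opposite strand. The sources used here do not say whether strand was used in counting, so that reads of the overlap may be shared or left out. How much of the IGFBP7 count this concerns was not tested. POLR2B itself rose in shHIF2A (1.67-fold, edgeR adjusted p = 0.0071), while in shJUNs and shYAPTAZ its adjusted p was 0.61 and 0.4.

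IGFBP1 (ENSG00000146678, chromosome 7, 45888360 to 45893660), the binding protein that insulin represses in liver and that hypoxia can induce, lies 18584 bases from IGFBP3 and did not follow it. It had 2 counts over the parental libraries, both in replicate 2, and none in shHIF2A, where 3 counts over the group would equal 0.314 CPM. It had 25, 7 and 46 counts in shJUNs replicates 1 to 3 (5.55, 1.87 and 10.3 CPM) and 5, 8 and 27 in shYAPTAZ (2.27, 2.55 and 6.51 CPM). All 6 of these libraries lay above all parental and shHIF2A ones. The ratio to parental cells was 30.5 in shJUNs (95% exact Clopper-Pearson interval 8.17 to 256, counting error only) and 21 in shYAPTAZ (5.44 to 179). Against the floor of 3 counts over the shHIF2A group, IGFBP1 was at least 19.4-fold higher in shJUNs and at least 13.4-fold higher in shYAPTAZ.

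IGFBP1 entered the test only through the groups in which it was counted, so that its p-values are no independent support. Both rises over parental cells were called by edgeR (adjusted p = 0.00657 in shJUNs and 0.0139 in shYAPTAZ), as were both over shHIF2A (0.00453 and 0.00481). The call in shJUNs ended without shJUNs replicate 3 (adjusted p = 0.0567). The one in shYAPTAZ was lost when parental replicate 1 (0.0541) or 3 (0.0566) or shYAPTAZ replicate 3 (0.0718) was left out. Without parental replicate 2, parental cells had no count.

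IGFBP4 (ENSG00000141753, chromosome 17, 40443450 to 40457725), the substrate of the protease PAPPA, was low. It was 3.49, 2.53 and 3.39 CPM in parental cells and 1.74, 3.74 and 2.80 CPM in shHIF2A. It reached 7.77, 21.1 and 5.59 CPM with shJUNs and 5.45, 5.73 and 9.88 CPM with shYAPTAZ. The shJUNs and shYAPTAZ libraries lay above the parental ones, and shJUNs replicate 2 stood apart from the rest of its group. edgeR called the rise in shJUNs, 3.62-fold to 11.5 ± 8.40 CPM (adjusted p = 0.0264), and not the 2.26-fold difference in shYAPTAZ (0.154). The call in shJUNs ended without shJUNs replicate 2 (2.12-fold, adjusted p = 0.296), without parental replicate 1 (0.059), 2 (0.0916) or 3 (0.0579), and with limma-voom (0.0788). IGFBP4 was also called 4.11-fold higher in shJUNs than in shHIF2A (adjusted p = 0.0347), which ended without shJUNs replicate 2 (0.315) or any 1 shHIF2A library (0.0638 to 0.134) and with limma-voom (0.104).

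IGFBP2 and IGFBP5 are neighbours on chromosome 2, 7668 bases apart. IGFBP2 (ENSG00000115457, 216632828 to 216664436) had 2 to 7 counts in parental libraries and at most 17 in any, and its levels were 2.61 to 4.68 CPM in shHIF2A against 0.562 to 2.44 CPM in parental cells. Those groups did not overlap, and the difference did not pass (3.35-fold, edgeR adjusted p = 0.189). IGFBP5 (ENSG00000115461, 216672105 to 216695549), a binding protein that attaches to bone and matrix, was 27.1 ± 2.81 CPM in parental cells, 27.7 ± 4.60 in shHIF2A, 26.9 ± 12.8 in shJUNs and 36.9 ± 3.87 in shYAPTAZ. Against parental cells its log2 difference was 0.03 in shHIF2A (approximate 95% interval -0.54 to 0.60), -0.02 in shJUNs (-0.58 to 0.55) and 0.44 in shYAPTAZ (-0.12 to 1.00; adjusted p = 0.288).

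**Figure D2:**
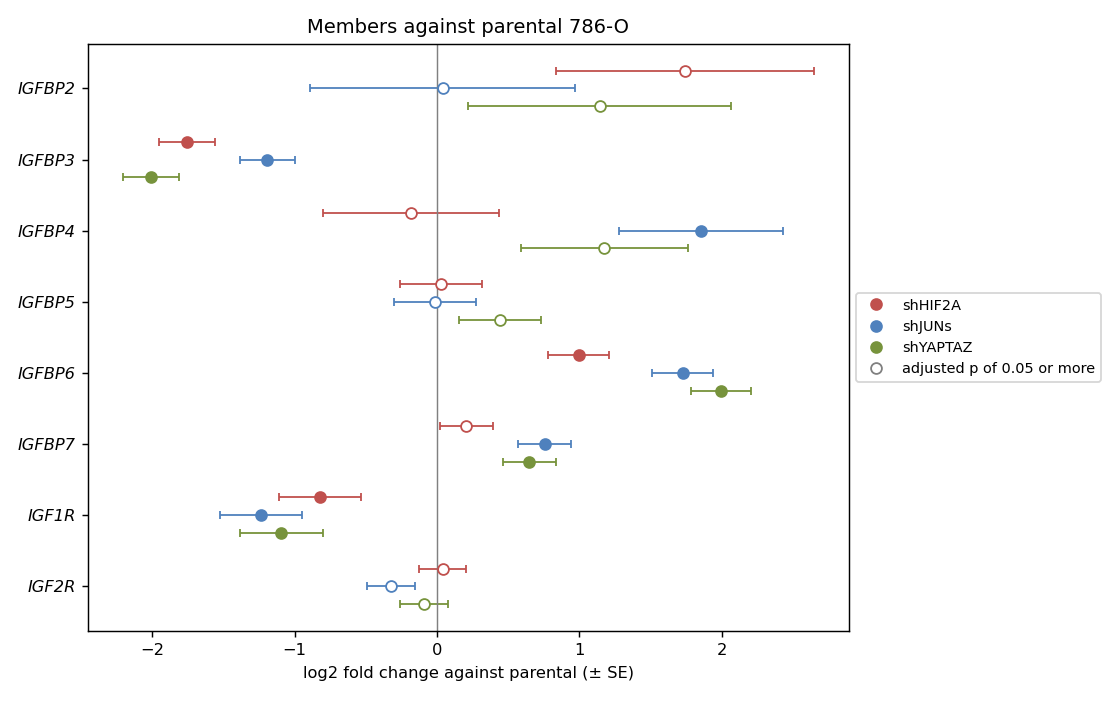
Log2 fold change of 8 members in each knockdown against parental cells, with SE from the edgeR fit. Filled points passed at an adjusted p under 0.05. IGFBP1 and INSR are left out because parental cells had 2 and 0 counts. IGFBP3 and IGF1R lie left of 0 and IGFBP6 right of 0 in all 3 knockdowns, with every point filled.

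The make-up of the binding protein mRNAs shifted from IGFBP3 towards IGFBP7 and IGFBP6. Since counts of 3′ ends do not grow with the length of the transcript, shares of the counts of IGFBP1 to IGFBP7 were compared without scaling to length. These shares need no scaling between libraries. IGFBP3 took 79.8% ± 3.90 (SD, n = 3) of these counts in parental cells, 50.7% ± 8.86 in shHIF2A, 50.3% ± 1.69 in shJUNs and 37.5% ± 5.55 in shYAPTAZ. The lowest parental library was at 76.2% and the highest knockdown library at 58.9%. IGFBP7 took 17.4% ± 2.81, 40.6% ± 9.15, 40.4% ± 1.12 and 48.4% ± 4.53 in the same order, and IGFBP6 1.67% ± 0.79, 6.31% ± 0.36, 7.12% ± 0.77 and 10.9% ± 1.88. A fall of IGFBP3 by itself raises the shares of the others. In shHIF2A the level of IGFBP7 was not called different and overlapped the parental one (415.5 to 744 against 445 to 592 CPM). There were 3.82 to 5.83 counts of IGFBP3 for each count of IGFBP7 in parental libraries and 0.583 to 0.92 in shYAPTAZ, where IGFBP7 outnumbered IGFBP3 in every library. The ratio was 0.818 to 1.81 in shHIF2A and 1.16 to 1.29 in shJUNs. The summed level of the 7 mRNAs was 2228 to 4114 CPM in parental libraries and 1278 to 1473 in shHIF2A. It was 1931 to 2220 CPM in shJUNs and 1352 to 1830 in shYAPTAZ. Every shHIF2A and shYAPTAZ library lay below every parental one. The highest shJUNs library (replicate 1, 2220 CPM) and the lowest parental one (replicate 3, 2228 CPM) were all but level. Their order depends on the scaling: by library totals alone, shJUNs replicate 1 stood above parental replicate 3. The sum was not tested.

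**Figure D3:**
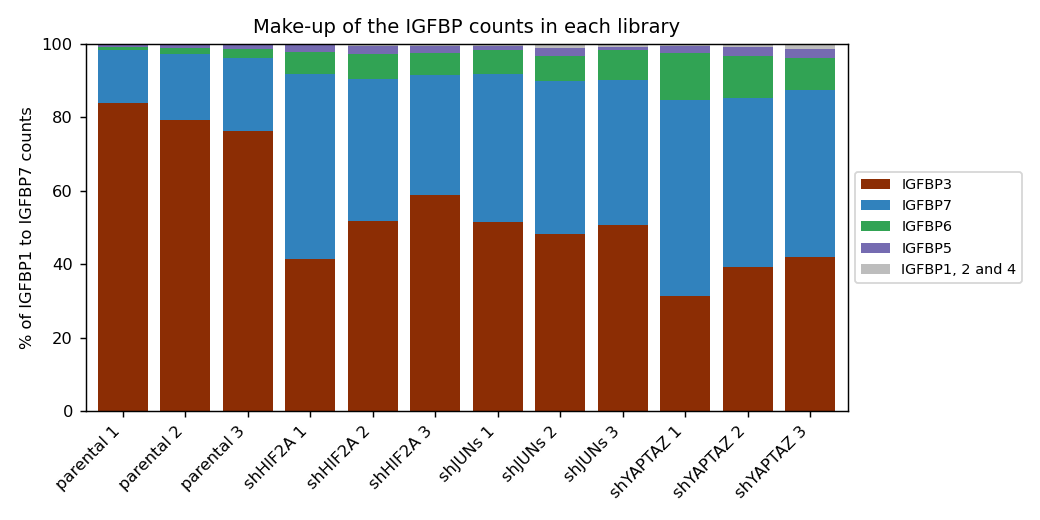
Share of the counts of IGFBP1 to IGFBP7 taken by each gene, in percent, for each of the 12 libraries. IGFBP3 filled 76.2% to 83.9% of the bar in parental libraries and 31.2% to 58.9% in the knockdown libraries, with IGFBP7 and IGFBP6 taking most of the rest.

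Among the receptors, IGF1R fell and IGF2R passed no test. IGF1R (ENSG00000140443, chromosome 15, 98648539 to 98964530) was 66.0, 59.3 and 47.8 CPM in parental cells and 33.9, 34.3 and 29.4 CPM in shHIF2A. Replicates 1 to 3 of shJUNs had 28.8, 19.2 and 25.03 CPM, and those of shYAPTAZ 44.5, 20.7 and 17.6 CPM. No knockdown library reached the lowest parental one, though shYAPTAZ replicate 1 came close. By edgeR, IGF1R fell 1.77-fold in shHIF2A (57.7 ± 9.21 to 32.6 ± 2.71 CPM, adjusted p = 0.047), 2.36-fold in shJUNs (24.4 ± 4.84 CPM, adjusted p = 0.00378) and 2.14-fold in shYAPTAZ (27.6 ± 14.7 CPM, adjusted p = 0.00761). The 3 knockdowns did not differ from each other beyond their spread (adjusted p = 0.441, 0.585 and 0.807). The call in shHIF2A was marginal. It ended without parental replicate 1 (adjusted p = 0.142) or 2 (0.105), without shHIF2A replicate 1 (0.0919), 2 (0.0937) or 3 (0.127), and without shJUNs replicate 1 (0.0542), 2 (0.0504) or 3 (0.0576). The call in shYAPTAZ ended without shYAPTAZ replicate 2 (0.0501), and without shYAPTAZ replicate 1 the fall was 3.01-fold.

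IGF2R (ENSG00000197081, chromosome 6, 159969082 to 160113507) was 142, 155 and 160.5 CPM in parental cells and 162, 149 and 158 CPM in shHIF2A. The values were 140, 109 and 116 CPM with shJUNs and 172, 150 and 109 CPM with shYAPTAZ. The shJUNs libraries lay just below the parental ones. Against parental cells its log2 difference was 0.04 in shHIF2A (approximate 95% interval -0.29 to 0.37), -0.33 in shJUNs (-0.65 to 0.00; edgeR adjusted p = 0.188) and -0.09 in shYAPTAZ (-0.42 to 0.24). INSR (ENSG00000171105, chromosome 19, 7112255 to 7294414) had 17 counts over all 12 libraries. Of these 14 were in shYAPTAZ replicate 2, 2 in shYAPTAZ replicate 1 and 1 in shHIF2A replicate 3, and the parental and shJUNs libraries had none. No fold is given for INSR, since a single library holds most of its counts.

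The ligands had counts at or near 0. IGF2 and INS had no count in any library, nor did the read-through gene INS-IGF2 that overlaps them. The sources used here do not say how reads of overlapping genes were counted, and such reads may have been left out. The counts of 0 therefore do not show that IGF2 mRNA was absent. IGF1 had 4 counts and IGFALS, the third partner of the blood carrier complex, 2 over all 12 libraries.

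Further down the pathway, IRS1 and IRS2, the receptor substrates that IGF1R and INSR phosphorylate, fell in every knockdown. IRS2 was 888, 752 and 634 CPM in parental cells and 84.6, 86.7 and 52.9 CPM in shHIF2A. It stood at 138, 124 and 112 CPM with shJUNs and 148, 132 and 87.7 CPM with shYAPTAZ. It fell 10.1-fold, 6.08-fold and 6.22-fold, a larger fold than for any member that could be tested above the floor (edgeR adjusted p = 5.69e-10, 8.83e-09 and 3.28e-09). IRS1 was 90.4 ± 4.80 CPM in parental cells and fell 3.11-fold to 29.0 ± 5.50 CPM in shHIF2A, 1.92-fold to 47.1 ± 14.6 in shJUNs and 2.76-fold to 33.0 ± 11.7 in shYAPTAZ (adjusted p = 0.000131, 0.0104 and 0.00023). The IRS1 call in shJUNs ended without shJUNs replicate 1 (0.0742) or 3 (0.0545). Neither adaptor overlapped between any knockdown and the parental libraries.

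RHEB, the activator of mTORC1, fell 1.74-fold in shYAPTAZ (347 ± 11.62 to 199 ± 28.1 CPM, edgeR adjusted p = 0.000146) and missed in shHIF2A (1.3-fold lower, adjusted p = 0.052, with 0.0205 to 0.174 over the alternatives). AKT1, a kinase downstream of PI3 kinase named after its values were seen, rose 1.76-fold in shJUNs and 1.79-fold in shYAPTAZ from 57.9 ± 6.67 CPM (adjusted p = 0.012 and 0.00778). The first call was lost when parental replicate 1 (0.0556) or shJUNs replicate 2 (0.0532) or 3 (0.0729) was left out, and the second when shYAPTAZ replicate 3 was (0.0724).

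Of 26 genes listed for insulin and IGF signalling, 23 were tested. The shHIF2A line had 2 of them higher and 4 lower (9.84% and 8.8% of all genes), the shJUNs line 3 higher and 5 lower (10.3% and 8.93%) and the shYAPTAZ line 2 higher and 5 lower (13% and 12.3%). The median log2 change of the tested genes was -0.33, -0.49 and -0.31, and that of all genes 0.01, 0.00 and 0.02. Further genes of this list were named after their values were seen. The adaptor GRB2 (1.46-fold and 1.49-fold) and the phosphatase PTPN1 (1.52-fold and 1.51-fold) were called higher in shHIF2A and shJUNs (edgeR adjusted p between 0.0145 and 0.024). Each of these 4 calls was lost when single libraries were left out (up to 0.132 for GRB2 and 0.0711 for PTPN1). GRB10, an adaptor that dampens receptor signalling, fell 2.25-fold in shJUNs (53.9 ± 9.09 to 23.9 ± 1.72 CPM, adjusted p = 0.0012). Its relative GRB14 rose 2.26-fold in shYAPTAZ (13.7 ± 1.29 to 31.2 ± 8.02 CPM, adjusted p = 0.00796). FOXO4, a transcription factor restrained by AKT, fell from 8.1 ± 4.08 to 0.8 ± 0.5 CPM in shJUNs (10 counts, adjusted p = 0.00914), a call lost without parental replicate 2 (0.0513) or shJUNs replicate 3 (0.0508). SHC1, an adaptor, was called 1.42-fold lower in shYAPTAZ (adjusted p = 0.0283), a call lost without parental replicate 1 (0.0623) or 2 (0.126), without shYAPTAZ replicate 2 (0.0713) or 3 (0.081), with no filter on low counts (0.0665) and in a fit of 6 libraries (0.0943).

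Genes that cut binding proteins or hold back the protease PAPPA moved apart from each other. PAPPA itself had only 5, 16, 22 and 6 counts over the parental, shHIF2A, shJUNs and shYAPTAZ groups. Its relative PAPPA2 had 9, 12, 1 and 2, and the filter left out both. The counts of both were seen before they were named. STC1, a stanniocalcin that inhibits PAPPA, was 117, 49.8 and 45.5 CPM in parental cells and fell 8.19-fold in shHIF2A, 18.6-fold in shJUNs and 3.42-fold in shYAPTAZ (edgeR adjusted p = 1.19e-05, 2.58e-07 and 0.000979). Without shJUNs replicate 3 its fall in shJUNs was 29.9-fold. STC2, its paralog and also a PAPPA inhibitor, rose 2.48-fold in shJUNs (39.9 ± 9.30 to 98.4 ± 15.1 CPM, adjusted p = 0.0163). It was called 2.14-fold higher in shYAPTAZ (adjusted p = 0.0329), where the libraries, at 41.8, 60.8 and 149 CPM, overlapped the parental ones and the call ended without shYAPTAZ replicate 3 (1.29-fold, 0.338). Both STC2 calls also ended without parental replicate 2 (0.0757 and 0.123) or 3 (0.0616 and 0.102), that in shJUNs without shJUNs replicate 3 (0.0598), and that in shYAPTAZ in a fit of 6 libraries (0.0623). ADAM12, a metalloprotease that can cleave IGFBP3 and IGFBP5, rose 2.08-fold in shJUNs (28.9 ± 6.13 to 60.1 ± 14.3 CPM, adjusted p = 0.00406). MMP7 was 35.1 to 39.3 CPM in shJUNs against 2.83 to 10.4 in parental cells and missed (adjusted p = 0.0627, with 0.000103 to 0.158 over the alternatives, 8 of which called it). Over 10 listed genes, 7 of them tested, 0 were called higher and 1 lower in shHIF2A (9.84% and 8.8% of all genes). The shJUNs line had 2 higher and 1 lower (10.3% and 8.93% of all genes). The shYAPTAZ line had 1 each way (13% and 12.3% of all genes).

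Of 13 other genes that carry an IGFBP domain, 6 were tested. Called higher were 2 in shHIF2A (9.84% of all genes) and 1 in shJUNs (10.3%). In shYAPTAZ 2 were called higher (13% of all genes) and 1 lower (12.3%). CRIM1, a membrane protein that binds BMPs, rose 2.06-fold in shHIF2A and 2.34-fold in shJUNs from 177 ± 16.3 CPM (edgeR adjusted p = 1.36e-05 and 1.4e-06) and was 194 ± 27.6 CPM in shYAPTAZ. HTRA1, a secreted serine protease, rose 2.66-fold in shYAPTAZ (37.5 ± 8.604 to 99.8 ± 19.5 CPM, adjusted p = 0.000167) and passed in neither other knockdown (0.928 and 0.473). CCN2, a matricellular protein commonly listed as a YAP/TAZ target, was called 3.22-fold higher in shHIF2A (adjusted p = 0.00249) and 2.54-fold higher in shYAPTAZ (0.00769), where its libraries at 53.6, 69.7 and 149 CPM overlapped the parental ones at 22.7, 30.7 and 54.3. Without shYAPTAZ replicate 3 the rise in shYAPTAZ was 1.7-fold. The gene called lower was CCN1, a relative of CCN2 and likewise a common YAP/TAZ target, named after its values were seen. CCN1 was 249, 460.1 and 712 CPM in shYAPTAZ against 705, 1819 and 1893 CPM in parental cells, with 1 library of each group overlapping (3.1-fold, adjusted p = 0.0192). That call was lost without parental replicate 2 (0.0596) or 3 (0.0586), without shYAPTAZ replicate 2 (0.0606) and with no filter on low counts (0.0531). CCN3, a related protein, passed in no comparison with parental cells (adjusted p = 0.0691, 0.496 and 0.601), though 4 alternatives called it higher in shHIF2A (down to 0.0325).

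Of 6 other cell surface partners, 5 were tested. The integrin chain ITGA5 rose 1.68-fold in shJUNs and 1.89-fold in shYAPTAZ from 47.6 ± 4.03 CPM (edgeR adjusted p = 0.00504 and 0.000651), and ITGAV 1.58-fold and 1.69-fold from 162 ± 6.61 CPM (0.00243 and 0.000559). In shHIF2A ITGAV was 1.34-fold higher (adjusted p = 0.0445), a call that ended in 14 of the 20 settings (up to 0.124). ITGB1 and LRP1 passed in no comparison with parental cells, and ITGB1 was called in shYAPTAZ only when its replicate 3 was left out (adjusted p = 0.00701). None of the 7 tested genes of mannose 6-phosphate sorting, which share the work of IGF2R, was called in any knockdown against parental cells by edgeR, DESeq2 or limma-voom, with 1, 2 and 0 at an unadjusted edgeR p under 0.05 in shHIF2A, shJUNs and shYAPTAZ and log2 differences of GGA2, GNPTAB and GNPTG between 0.21 and 0.55. The log2 differences of NAGPA, which uncovers the mannose 6-phosphate tag, were 0.50, 0.07 and -0.42 in the same order. Neither of the 2 tested IGF2 mRNA-binding proteins, IGF2BP2 and IGF2BP3, was called by these tools, with 0, 0 and 1 at an unadjusted p under 0.05 (log2 differences of -0.50 to -0.14).

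**Figure D4:**
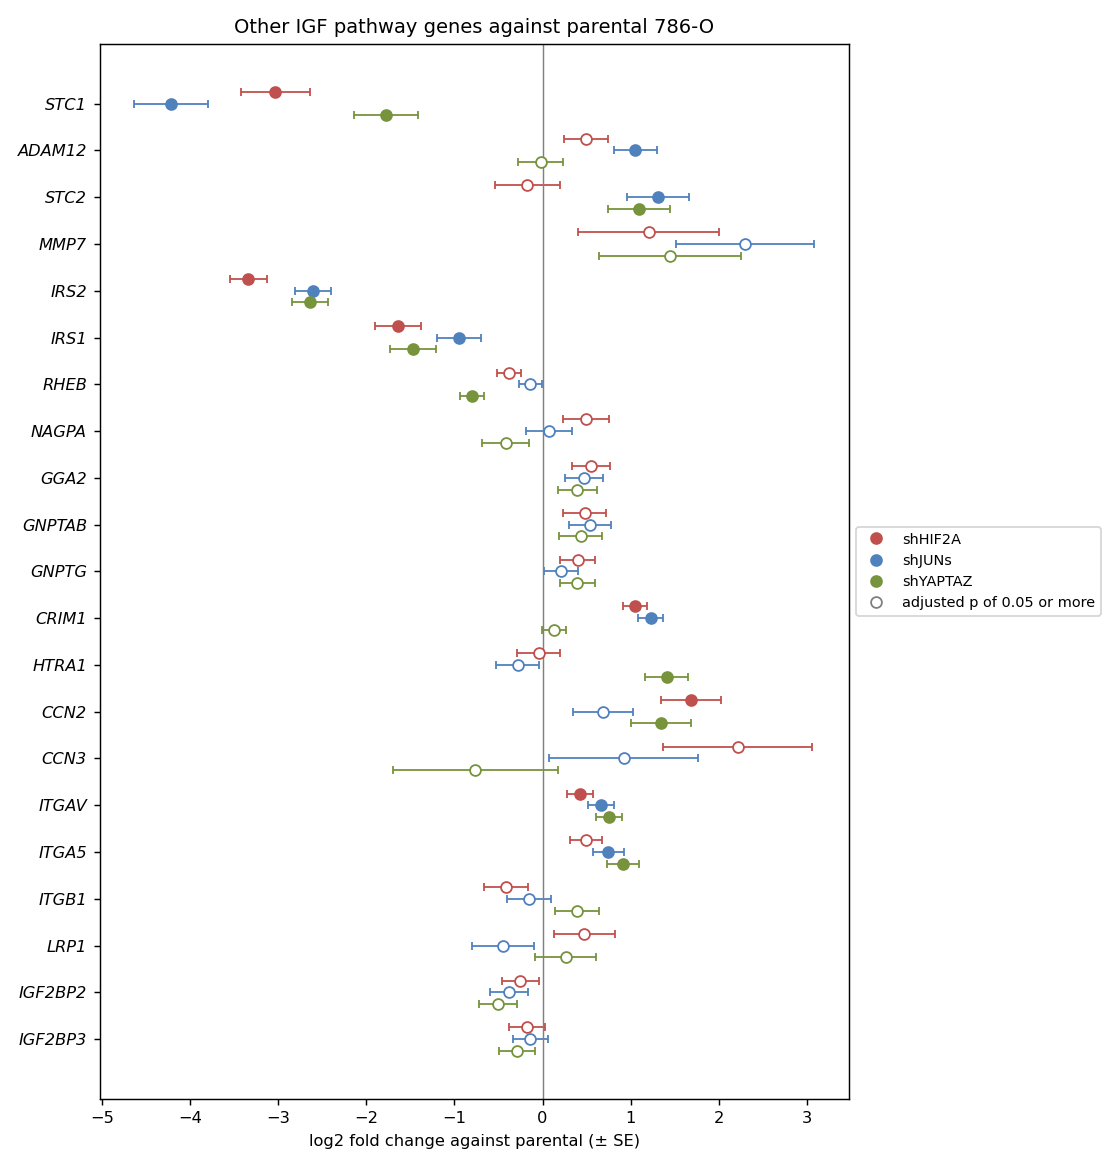
Log2 fold change against parental cells, with SE from the edgeR fit, of up to 4 genes of each other list, chosen among those with the smallest p for any difference among the 4 groups. Filled points passed at an adjusted p under 0.05. IRS2 at -3.34, -2.61 and -2.64 and STC1 at -3.03, -4.22 and -1.77 lie farthest left, and CRIM1 is filled in shHIF2A and shJUNs.

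Knockdowns were also compared with each other, in the same model of all 12 libraries. In shJUNs against shHIF2A 3 members were called (7.53% of all genes), all higher in shJUNs (4.36% of all genes): IGFBP1, IGFBP4 and IGFBP6. In shYAPTAZ against shHIF2A 2 were called (18.4% of all genes), IGFBP1 and IGFBP6, both higher in shYAPTAZ (9.71% of all genes). The counts of both comparisons with shHIF2A include IGFBP1. It was kept by the filter only through shJUNs and shYAPTAZ, so that its calls are no independent support. In shYAPTAZ against shJUNs 1 was called (16.1% of all genes), IGFBP3, lower in shYAPTAZ (8.27% of all genes). IGFBP7 missed in shJUNs against shHIF2A (1.46-fold higher, edgeR adjusted p = 0.0831) and was called there in 6 of the 20 alternatives. Neither IGF1R nor IGF2R was called between knockdowns.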

How the data were processed

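RNA from 12 libraries of 786-O, 3 in each of 4 groups, was analysed. The authors deposited raw counts per gene, made with Trim Galore and STAR on hg38 per the submitters' processing notes. The sources used here do not give the counting program, the annotation, whether strand was used or whether molecular identifiers were collapsed. The table had 62705 lines after its header. Of these, 3 lines that held 1 broken gene were left out, which gave 62702 genes. Symbols came from a table of gene identifiers. The test was edgeR's (version 4.0.16, R 4.3.3), with filterByExpr by group (12301 genes kept), TMM scaling, and 1 robust quasi-likelihood model of all 12 libraries in which each group has its mean. SE is the log2 change divided by the square root of F, and approximate 95% intervals use the normal distribution. The fit was tested on simulated data. Pairs of replicates differed by more than counting error (chi-squared per degree of freedom 4.91 to 20.2). Intervals and floors cover counting error only.

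The members and lists were chosen with earlier results of these data known. Named were all 10 members, the ligands and IGFALS, up to 4 genes of each other list with the smallest p for any difference, and for each member called at 10 CPM or more the 2 genes most alike over the libraries. Some genes of the signalling list are counted with it but not reported here by name. Alternatives were RLE size factors, DESeq2 1.42.0, limma-voom (limma 3.58.1), no filter, a filter at a mean of 10 CPM, a replicate block, a fit of the 6 libraries compared, each library left out in turn, and library totals without TMM factors, the last chosen after seeing the data.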

Additional observations from a re-analysis of the deposited data

How the results depend on the processing

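No fold change of a named gene that was called reversed its direction in any of the 20 alternative settings. Of 177 pairs of gene and comparison, 137 kept their side of the threshold in every setting that gave a value, and most of the others stand beside their genes above. The number of members called in shJUNs against shHIF2A went from 3 to 5 with no filter on low counts (926 to 1092 over all genes). In shYAPTAZ against shHIF2A it went from 2 to 1 with the filter at a mean of 10 CPM, which removes IGFBP1, and to 1 in a fit of those 6 libraries. Over all genes those 2 settings called 2156 and 1627, against 2268 in the main fit. Leaving out 1 library at a time gave 2 to 3 members called in shHIF2A against parental cells, 5 to 6 in shJUNs, 3 to 5 in shYAPTAZ, 1 to 4 in shJUNs against shHIF2A, 2 to 3 in shYAPTAZ against shHIF2A, 1 to 1 in shYAPTAZ against shJUNs and 5 to 6 among the 4 groups. Over all genes the same fits called 1534 to 2662, 1518 to 2701, 2444 to 3219, 471 to 1199, 1634 to 2475 and 1299 to 2199 in the 6 comparisons in this order. Leaving out 1 library gave 7 to 14 pathway genes called in shHIF2A, 9 to 17 in shJUNs and 12 to 17 in shYAPTAZ, all against parental cells. The main fit tested 50 pathway genes, and of all genes it called 18.6%, 19.3% and 25.3% in these comparisons. INSR was outside the filter and IGFBP1 and IGFBP2 gave no value in some settings. Same-numbered libraries deviated together in only 5 of 18 pairs (r over 0.1, range -0.01 to 0.22), short of every pair, so the numbers were not taken as pairs. Still, 14 of 18 correlated best with their own number, a hint of an effect shared by number. The percentage of mitochondrial counts and the level of IGFBP7 both fell from replicate 1 to replicate 3 in all 4 groups. With the replicate block the members called numbered 3 in shHIF2A, 6 in shJUNs and 5 in shYAPTAZ, as without it, 4 in shJUNs against shHIF2A and 3 in shYAPTAZ against shHIF2A, where IGFBP7 was added (adjusted p = 0.000662 and 0.00383). Over all genes the block moved the calls of those 2 comparisons from 926 to 1350 and from 2268 to 2770. No scaling moved the median of all genes by over 0.04 (log2). At these depths changes of IGFBP1, IGFBP2, IGFBP4 and INSR rest on few counts.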

Other observations

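The genes whose levels most resembled those of each called member were sought among 9765 genes whose mean reached 10 CPM in 1 group or more, by Pearson's r of log2 CPM (prior count 2) over the 12 libraries. The libraries fall into 4 groups, so that r mostly reflects the group means, and it is given as a description. IGFBP3 was most like PFKP, a glycolytic enzyme (r = 0.947, Spearman's rho 0.783), and PYCR1, an enzyme of proline synthesis (0.944, rho 0.895). PFKP was 656 ± 103 CPM in parental cells and 326 ± 22.03, 396 ± 5.66 and 343 ± 19.4 CPM in shHIF2A, shJUNs and shYAPTAZ.

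IGF1R was most like OLMALINC, a long noncoding RNA (r = 0.962, rho 0.958), and FAM149A (0.956, rho 0.993). OLMALINC went from 107 ± 17.6 CPM in parental cells to 17.97 ± 5.17, 7.73 ± 4.98 and 9.31 ± 8.59 CPM, a steeper change than that of IGF1R. IGFBP6 was most like TPD52L1 (r = 0.963, rho 0.909) and ITGA5, the integrin chain of the fibronectin receptor (0.958, rho 0.902). TPD52L1 stepped up from 34.5 ± 3.501 CPM to 56.4 ± 3.64, 86.9 ± 3.26 and 103 ± 10.7 CPM in the same order of groups as IGFBP6. IGFBP7 was most like HLA-E, an MHC class I molecule (r = 0.934, rho 0.923), and LAMA5, a laminin chain (0.931, rho 0.923). IGFBP4 was most like PAFAH2 (r = 0.866, rho 0.811) and SPINT2, a protease inhibitor (0.853, rho 0.839), which was 42.1 ± 1.97 CPM in parental cells, 38.4 ± 5.28 in shHIF2A, 136 ± 20.9 in shJUNs and 109 ± 13.8 in shYAPTAZ.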
